A study of Mus musculus with 2 samples.

Results

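Interferon-inducible GTPases were examined in FAPs, or fibro/adipogenic progenitors, stromal cells that lie between the fibres of skeletal muscle. The genes are Mx1 and Mx2 of the Mx family, Gbp9 of the guanylate-binding protein (GBP) family, and Tgtp2 and Ifi47 of the immunity-related GTPase (IRG) family. They were chosen by name from the 179 genes of the authors' deposited table, all of which the authors called changed, so their differences between the libraries are a description and carry no test. A further pair of listed IRG genes, Gm12250 and Gm4841, fall outside that choice and are given beside the 5.

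Both groups were FAPs freshly sorted from C57BL/6 mice and grown in DMEM with 20% fetal bovine serum and penicillin-streptomycin. The Musclin group was exposed for 72 hours to 1 µM of recombinant Musclin of the mouse, a hormone-like peptide made by muscle fibres. The Vehicle group received an equal amount of vehicle for 72 hours, and the medium was renewed every day in both. There was 1 RNA library per group, the sort markers and the number of mice are not given in the labels, and no spread between replicates can be measured. The level column headed PBS was taken as the vehicle library, because it is the denominator of the authors' fold. The labels leave the composition of the vehicle unnamed.

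Mx proteins are dynamin-like GTPases that assemble on viral ribonucleoproteins, and in mice their genes are switched on mainly by type I and type III interferons. GBPs and IRGs are GTPases that gather on the membranes around intracellular bacteria and parasites, and they are known above all as interferon-gamma targets. The division is not strict, since type I interferons also induce many GBP and IRG genes. In most laboratory strains, C57BL/6 included, neither Mx1 nor Mx2 makes a functional protein, so a level of their RNA says nothing about antiviral activity.

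What the 5 share in sequence is the phosphate-binding P-loop, where the GTP is held. It was found in the coding sequence of the 5 genes as a codon for glycine, 4 codons of any kind, and then codons for glycine, lysine and serine or threonine. Each coding sequence held 1 such stretch of 24 bases, shown here from GENCODE M21 transcripts of GRCm38 with the last 3 codons in capitals.
Mx1: ggggaccagagttctGGGAAGAGC
Mx2: ggggaccagagttctGGGAAGAGC
Gbp9: ggattgtaccgtacaGGGAAGTCC
Tgtp2: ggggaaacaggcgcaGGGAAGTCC
Ifi47: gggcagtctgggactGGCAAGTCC
The stretch begins at codon 43 in Mx1, codon 70 in Mx2, codon 43 in Gbp9, codon 63 in Tgtp2 and codon 81 in Ifi47. It is the same 24 bases in Mx1 and Mx2, while the GBP and IRG genes differ from them and from each other in the first 5 codons. Among the last 3 codons, AGC of the Mx genes is TCC in Gbp9, Tgtp2 and Ifi47. Ifi47 also has GGC where the others have GGG. The coding sequences run to 627 codons in Mx1, 655 in Mx2, 619 in Gbp9, 415 in Tgtp2 and 420 in Ifi47, so the IRG genes are the short ones of this group.

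All 5 genes stood higher in the Musclin library, with ratios of the deposited levels between 2.03 and 4.60. The authors tested 23180 genes, as worked out from their p-values and adjusted p-values, and listed 116 of them as higher, which is 0.500%. The 5 were picked from that list, so nothing is read from their being in it. The levels are an expression signal whose unit the file header does not state. Read estimates for single genes, worked out from the authors' folds and p-values, gave 9.36 to 13.6 reads per unit of level and per kilobase of the longest transcript in the vehicle library across the 5, so the levels are close to a per-length scale and are compared between genes as such.

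Mx1 (ENSMUSG00000000386, GRCm38 chr16:97447035-97462907, minus strand) was at a level of 0.77 in the vehicle library and at 3.54 in the Musclin library. It had the lowest level of the 5 in both libraries and the largest level ratio, 4.60. The read estimates behind it were 25 with vehicle, with a 95% Poisson counting interval of 16.2 to 36.9, and 84.7 with Musclin, with an interval of 67.6 to 105. The fold in the authors' deposited table was 3.998 (adjusted p = 2.98e-09 in the same table), and its 95% counting interval from the read estimates ran from 2.54 to 6.54. These intervals cover counting error in 2 libraries and not the difference between cultures. GENCODE M21 types Mx1 as protein coding, while RefSeq (GRCm38.p6) types it as a transcribed pseudogene.

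Mx2 (ENSMUSG00000023341, chr16:97535308-97560900, plus strand) is the other Mx gene of the mouse, whose protein is cytoplasmic in strains that make it. The vehicle level of Mx2 was 6.26 and the Musclin level 14.48, a ratio of 2.31. Its read estimates were 145 and 278.3, and the fold of 2.265 in the authors' deposited table had a counting interval of 1.84 to 2.79. GENCODE types Mx2 as a polymorphic pseudogene and RefSeq as a transcribed pseudogene. The Mx genes lie 72401 bases apart, head to head on opposite strands, and their coding sequences were 83.7% identical over 1787 aligned bases. Windows of 100 bases shared with another gene made up 1.25% of the longest Mx1 transcript and 1.72% of that of Mx2, in both cases shared with the other Mx gene. The level of Mx2 was 8.13 times that of Mx1 with vehicle and 4.09 times with Musclin. The fold of Mx1 was 1.77 times that of Mx2, with a 95% counting interval of 1.08 to 2.88 from the read estimates.

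Gbp9 (ENSMUSG00000029298, chr5:105077630-105139539, minus strand) was the only GBP gene of the table. Its vehicle level was 3.31 and its Musclin level 6.73, a ratio of 2.03, the smallest of the 5. The read estimates were 214 and 372, and the fold of 2.052 in the authors' deposited table had a counting interval of 1.73 to 2.44. The smallest fold the authors listed for any higher gene was 2.006, so Gbp9 lay just inside the list. GBP genes just outside it were not analysed here. The span of Gbp9 overlaps Gbp8 and Gbp4 on the same strand, and 60 of its 5173 exon bases lie in exons of each. Its coding sequence was 90.8% identical to that of Gbp4 and 90.3% identical to that of Gbp8, yet only 1.74% of its 100-base windows occurred in other genes.

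Tgtp2 (ENSMUSG00000078921, chr11:49057194-49064206, minus strand) encodes an IRG protein of the class that loads onto parasite vacuoles. The vehicle library gave it a level of 1.86 and the Musclin library 7.54, a ratio of 4.05. The read estimates were 71.31 and 213.18, and the fold of 3.528 in the authors' deposited table had a counting interval of 2.69 to 4.70. With vehicle Tgtp2 stood below Gbp9 in level, and with Musclin above it. Tgtp2 was the top of the 5 by p, at rank 77 of the genes the authors tested.

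Tgtp2 has a near copy, Tgtp1, which lies 63022 bases away in the same IRG cluster and which was not in the table. The longest transcripts of the pair differ at 6 of 2810 aligned bases, of which 4 lie in the coding sequence, and by 1 base of internal gap. The closest pair of coding differences appears here in capitals, at positions 971 to 1013 of the Tgtp2 transcript and 984 to 1026 of the Tgtp1 transcript.
Tgtp2: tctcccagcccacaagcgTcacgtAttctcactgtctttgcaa
Tgtp1: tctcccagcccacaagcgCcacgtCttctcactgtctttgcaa
Counted from the 5' end of the Tgtp2 transcript, with the Tgtp2 base first, these are T989C and A995C. The remaining coding differences are C530G and T668C. Of the 100-base windows of Tgtp2, 80.4% also occur in Tgtp1, so a read from most of this transcript fits both genes, and the values of Tgtp2 are uncertain to that extent. How the authors divided such reads is not known here.

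Ifi47 (ENSMUSG00000078920, chr11:49076587-49096974, plus strand), also called IRG-47 and Irgd, was the highest of the 5 in both libraries. Vehicle and Musclin levels were 10.42 and 22.6, a ratio of 2.17. The read estimates were 224 and 409, and the fold of 2.155 in the authors' deposited table had a counting interval of 1.83 to 2.55. Ifi47 starts 12381 bases from the start of Tgtp2, on the other strand. Its exons share 111 of 2473 bases with Olfr56 on the same strand and 106 with the processed pseudogene Gm12188 on the opposite strand. Whether the libraries were stranded is not known here, so reads in the latter stretch cannot be assigned.

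**Figure D1:**
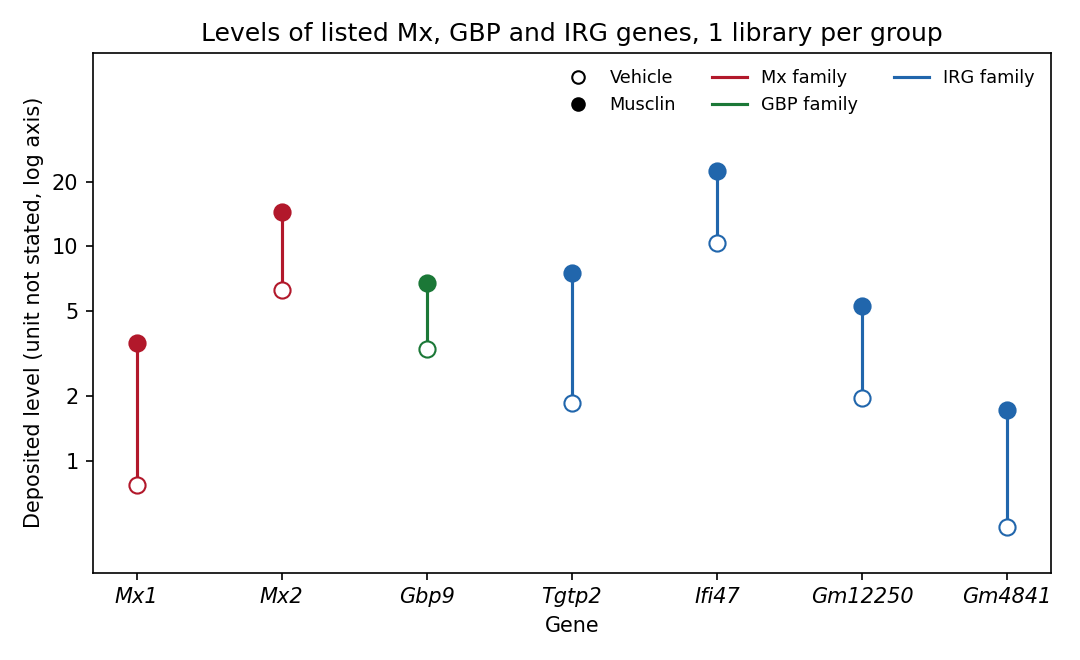
Deposited level (unit not stated, log axis) of each listed Mx, GBP and IRG gene in the vehicle library (open circles) and the Musclin library (filled circles), coloured by family, with 1 library per group and no error bars. Ifi47 is highest in both libraries (10.42 and 22.6), and the Tgtp2 level passes that of Gbp9 only with Musclin (7.54 against 6.73).

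The other listed IRG genes, Gm12250 and Gm4841, were noticed after the values were seen. Gm12250 (ENSMUSG00000082292, chr11:58187739-58189012, plus strand) carries Irgb10 as a synonym in RefSeq, the name of an IRG protein that acts on bacterial membranes. GENCODE types it as a processed pseudogene and RefSeq as protein coding. The vehicle level was 1.96 and the Musclin level 5.28, and its fold of 2.590 in the authors' deposited table had a counting interval of 1.73 to 3.96 from 36 and 79 estimated reads. Gm4841, on chromosome 18, stood at 0.49 with vehicle against 1.72 with Musclin. The authors' deposited table gives Gm4841 the fold 3.515, with a counting interval of 2.07 to 6.30 from 19.14 and 57 estimated reads. Both were higher with Musclin. Gm4841 rests on fewer vehicle reads than any of the 5 genes, and Gm12250 on fewer than any but Mx1.

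In level, the order with vehicle was Ifi47, Mx2, Gbp9, Tgtp2 and Mx1, and with Musclin it was Ifi47, Mx2, Tgtp2, Gbp9 and Mx1. With no replicates it cannot be said that any neighbours in that order differ beyond their spread. In ratio, the highest and the lowest level drew closer together with Musclin. The level of Ifi47 was 13.5 times that of Mx1 with vehicle and 6.38 times with Musclin. Not every pair drew closer. In ratio, Ifi47 and Mx2 moved further above Gbp9, which had the smallest level ratio of the 5, 2.03. Ifi47 and Mx2 together held 73.7% of the summed level of the 5 with vehicle and 67.6% with Musclin.

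The folds were compared over the 10 pairs of the 5 genes, as the ratio of the folds with a 95% counting interval, not adjusted for the number of pairs. The interval lay off 1 for 6 pairs and held 1 for 4. The 6 are those that set Mx1 or Tgtp2 against Mx2, Gbp9 or Ifi47. The fold of Tgtp2 was 1.64 times that of Ifi47, a member of its own family, with an interval of 1.20 to 2.24. The fold of Mx1 was 1.13 times that of Tgtp2, with an interval of 0.673 to 1.91. By counting error alone, the higher folds of Mx1 and Tgtp2 thus ran across the family lines, with 1 gene from the Mx and 1 from the IRG family. The intervals of Tgtp2 do not cover reads that may belong to Tgtp1, which holds 80.4% of its 100-base windows. Mx1 and Tgtp2 were also those with the lowest vehicle levels. A gene with few reads passes a threshold on p only at a larger fold. The adjusted p in the authors' deposited table was 2.98e-09 for Mx1 and 1.07e-20 for Tgtp2, and the largest they listed was 0.0497. The part of the authors' thresholds in this order was not tested.

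**Figure D2:**
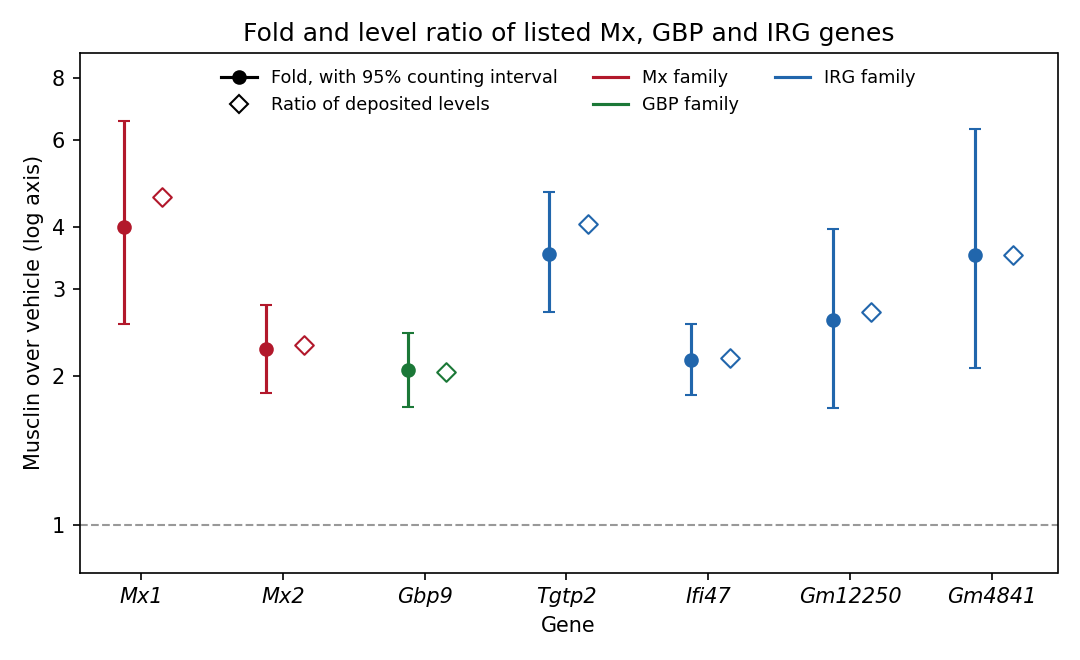
Musclin over vehicle (log axis) for each listed gene, as the authors' fold with its 95% counting interval from the read estimates (circles) and as the ratio of the deposited levels (diamonds), with a dashed line at 1. The intervals of Tgtp2 (2.69 to 4.70) and Ifi47 (1.83 to 2.55) are apart, and the diamonds of Mx1 and Tgtp2 sit above their circles. The interval of Tgtp2 does not cover reads that may belong to Tgtp1.

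For Mx1 and Tgtp2 the ratio of the levels exceeded the authors' fold, by a factor of 1.15 in each. It was 1.02 for Mx2, 1.01 for Ifi47 and 0.991 for Gbp9. The level ratio was divided by the fold for the 137 genes above 0 in both libraries and with a p above 0. The result had a median of 0.998, and its 10th and 90th percentiles were 0.917 and 1.18. The factors of Mx1 and Tgtp2 thus lie inside the range seen over the table. A level depends on the transcript lengths estimated in each library and a read count does not.

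The comparison of the Mx genes, linked to type I interferons, with the GBP and IRG genes, linked to interferon-gamma, gave no stable difference. The median vehicle level was 3.52 for the Mx pair and 3.31 for Gbp9, Tgtp2 and Ifi47, a ratio of 0.942 for the latter over the former. Estimated reads per unit of level and per kilobase were lower for the Mx genes, so this ratio depends on the level scale. The median log2 level ratio was 1.71 for the Mx pair and 1.12 for the GBP and IRG trio, a difference of -0.59. That difference rests on single genes. Without Mx1 it was -0.093, without Gbp9 -0.14, and without Mx2 -1.08. With a pseudocount of 5 added to each level, more than the vehicle level of Mx1, Tgtp2 or Gbp9, it turned to 0.16. In every other setting tried it stayed negative, at -0.48 by the authors' log2 fold, -0.32 by means and -0.63 without Tgtp2. Members of 1 pair of libraries are not replicates, and no test of the family difference was made.

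Summed over members, the Mx genes held 170 estimated reads in the vehicle library and 363 in the Musclin library, a fold of 2.52 with a counting interval of 2.09 to 3.04. The GBP and IRG genes held 509.31 and 994.18, a fold of 2.30 with an interval of 2.07 to 2.57. The fold of the GBP and IRG genes was 0.914 times that of the Mx genes. Adding Gm12250 and Gm4841 to the GBP and IRG genes gave a fold of 2.36, with an interval of 2.14 to 2.62. The sums are weighted towards the genes with most reads. Each interval covers the counting of summed reads and not differences between members, so it is no test of the families.

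**Figure D3:**
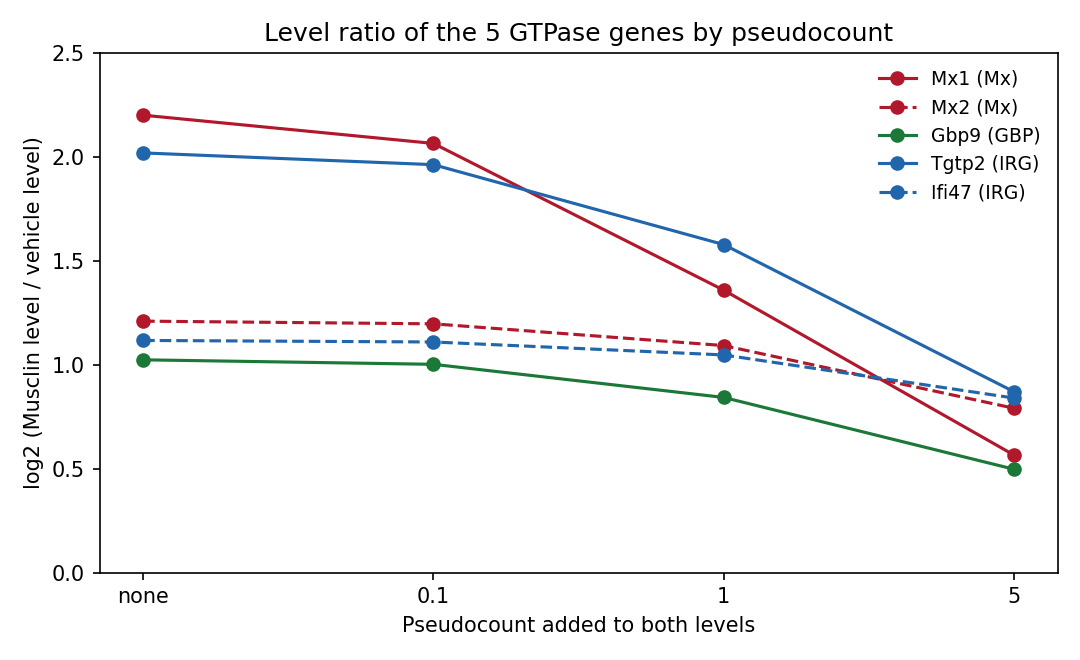
log2 ratio of Musclin over vehicle level for the 5 genes with no pseudocount and with 0.1, 1 and 5 added to both levels, 1 library per group. Mx1 falls from 2.20 to 0.57 and drops below Mx2 and both IRG genes, which turns the sign of the family difference.

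The rest of these families was mostly not in the table. Of 31 annotated Mx, GBP and IRG genes, 7 were listed as higher and 0 as lower, or 22.6%, against 0.500% of all genes tested. The share describes families that were chosen because members were listed, so it is not independent evidence. By family, 2 of 2 Mx, 1 of 11 GBP and 4 of 18 IRG genes were listed. Of the very large inducible GTPases, a related family, 0 of 5 were listed. The table holds only genes past the authors' thresholds, so an unlisted gene is not shown to be unchanged, and its level was not analysed here.

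Upstream in the pathway, the table held 0 of 24 interferon ligand genes, 0 of 6 receptor genes, 0 of 14 genes of the JAK-STAT and IRF relay that carries the signal to the nucleus, and 0 of 8 brakes such as Usp18 and the SOCS genes. Over all genes tested, 0.500% were listed as higher and 0.772% in either direction, so at the share of all genes lists of this size would hold none or hardly any, and these zeros are not a result about the pathway. Among other targets, 7 of 40 mainly type I genes were listed, all as higher, which is 17.5% beside the 0.500% of all genes. These lists too were made with earlier results known. They include Ifit1, Ifit3 and Ifit3b, which encode proteins that bind foreign RNA. Ifit3 stood far above the members, at 90.96 in the vehicle library against 191.85, and the summed level of the 3 IFIT genes had a ratio of 2.06. Of the 29 mainly interferon-gamma genes, the chemokine genes Cxcl9 and Cxcl10 were listed, both as higher, which is 6.90%. Cxcl9 went from a level of 2.2 to 7.93 and Cxcl10 from 1.09 to 6.29.

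The type I targets Rsad2, Cmpk2 and Ddx60 came closest to the members in depth. Rsad2, which encodes the antiviral enzyme viperin, was estimated at 48 and 113 reads, and its fold of 2.778 in the authors' deposited table came with a counting interval of 1.97 to 3.98. Ddx60, an RNA helicase gene, was estimated at 170 and 334 reads, and the same table gives 2.319, with an interval of 1.92 to 2.81. Cmpk2, a nucleotide kinase gene next to Rsad2 in the genome, was estimated at 53 and 104 reads, and that table gives 2.316, with an interval of 1.65 to 3.29. Oas3, which encodes an antiviral sensor of double-stranded RNA, had the lowest levels of the listed targets, 0.14 and 0.43.

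**Figure D4:**
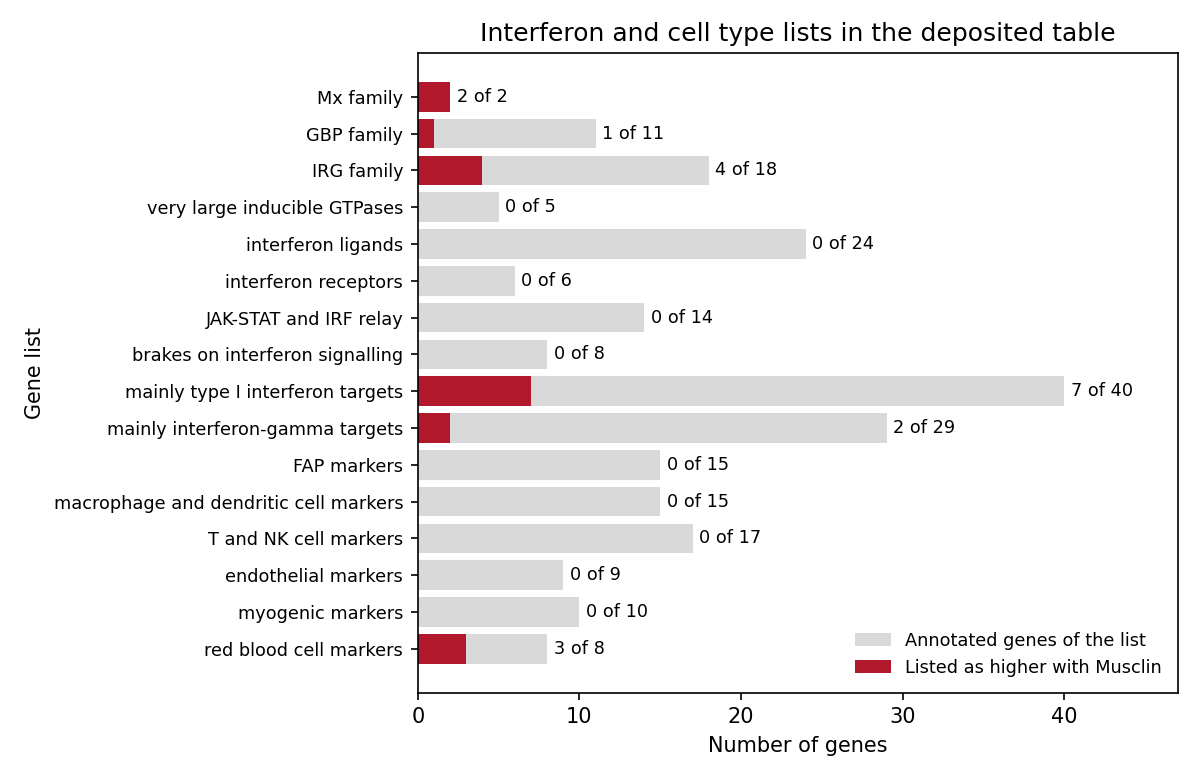
Number of annotated genes in each interferon and cell type list (grey) and the number the authors listed as higher with Musclin (red); none was listed as lower. Listed genes appear among the Mx (2 of 2), GBP (1 of 11) and IRG (4 of 18) families and the interferon targets (7 of 40 and 2 of 29). They also appear among the red blood cell markers (3 of 8). Of all genes tested, 0.500% were listed as higher, so the zeros of the ligands, receptors, relay and brakes are at the background.

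Markers of other cell types were counted in the same table. It held 0 of 15 macrophage and dendritic cell markers, 0 of 17 T and NK cell markers, 0 of 9 endothelial and 0 of 10 myogenic markers. With 0.772% of all genes listed, a count of 0 in lists of this size is at the background and is not a result about these cells. The levels of these genes, and of the FAP markers, of which 0 of 15 were listed, were not analysed here, so the label of the cells could not be checked against them. Of 8 red blood cell markers, the hemoglobin genes Hba-a1, Hbb-bs and Hbb-bt were listed, and all were higher with Musclin, which is 37.5% beside 0.500% of all genes. Their summed level went from 17.15 to 51.24 between the libraries, a rise of 34.1, beside a rise of 32.3 from 22.62 to 54.89 in the summed level of the 5 GTPase genes. The part of red cell RNA in the results on the GTPases was not tested. In bulk RNA, a change in the share of cells that express a gene and a change in its RNA per cell cannot be told apart.

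Interferons act on these genes through short promoter elements, the gamma-activated site (GAS) and the interferon-stimulated response element (ISRE). The 250 bases before the RefSeq start (GRCm38.p6) were searched on both strands for GAAA, any 2 bases and again GAAA as the ISRE, and for TTCNNNGAA, which reads the same on both strands, as the GAS. Of the 5 genes, 2 matched a promoter entry, Tgtp2 and Ifi47, and Gm12250 matched as well. The last 120 bases before the start are shown in the direction of transcription for these 3 and for Tgtp1, the near copy that was not listed, with matches to either element in capitals.
Tgtp2: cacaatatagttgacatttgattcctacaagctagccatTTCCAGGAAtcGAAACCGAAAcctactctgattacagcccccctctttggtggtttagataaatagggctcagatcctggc
Tgtp1: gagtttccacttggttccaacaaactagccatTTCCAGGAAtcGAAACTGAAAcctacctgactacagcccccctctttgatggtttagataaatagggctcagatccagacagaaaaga
Gm12250: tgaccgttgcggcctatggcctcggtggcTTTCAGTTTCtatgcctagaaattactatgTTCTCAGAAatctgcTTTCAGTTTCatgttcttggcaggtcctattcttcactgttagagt
Ifi47: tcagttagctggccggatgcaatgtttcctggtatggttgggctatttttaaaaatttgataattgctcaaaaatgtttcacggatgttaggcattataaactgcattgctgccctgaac
These lie at chr11:49064213-49064332 (minus strand), chr11:48992247-48992366 (minus strand), chr11:58183723-58183842 (plus strand) and chr11:49076467-49076586 (plus strand) of GRCm38.

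In Tgtp2 a GAS match begins 81 bases before the start and an ISRE match 70 bases before it, set apart by 2 bases. Tgtp1 holds the same pair at 88 and 77 bases. In Gm12250 the GAS match lies at 61 bases, between ISRE matches on the other strand at 91 and 46 bases. Ifi47 held neither in its window, which lies at its most upstream annotated start. The annotated transcript starts of Ifi47 span 11677 bases, and the others were not searched.

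Of 32851 promoter windows of this length, 978 or 2.98% held the ISRE letters, 2306 or 7.02% the GAS letters, and 109 or 0.332% both. Among the Mx, GBP and IRG genes, 17 had a window, of which 12 held the ISRE, 8 the GAS and 8 both. Of the 3 listed genes 2 held both, and of the 14 unlisted genes 6 did, among them Igtp, Irgm2, Gbp5 and Gbp7. The letters were thus also present before family members that were not listed. A match is a stretch of letters and not a measured binding site.

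By the rule fixed for likeness, the listed gene nearest in log2 level over the 2 libraries was sought for each of the 5 among 56 other listed genes with ordinary symbols. Tgtp2 lay nearest to Cxcl9, with levels of 2.2 and 7.93, at a distance of 0.25. This likeness is one of levels. The fold in the authors' deposited table was 2.496 for Cxcl9 and 3.528 for Tgtp2, and the level ratio of Cxcl9 was 1.44 times its fold. Mx1 lay nearest to the histone gene Hist1h2br (0.98 and 3.67) at 0.35. Mx2 lay nearest to the hemoglobin gene Hba-a1 (4.39 and 14.85) at 0.51, Gbp9 to AW011738 (2.35 and 5.7) at 0.55, and Ifi47 to Hbb-bs (12.31 and 33.86) at 0.63. With 2 libraries this likeness rests on 2 values per gene.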

How the data were processed

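The deposited table gives, per the file headers, an expression signal (level) for each library, the authors' fold (ratio), its log2 value, and a p-value and adjusted p-value. The submitters' processing notes name RSEM, edgeR and the build GRCm38.p5 without roles or versions. No source used here gives the aligner, annotation release, scaling or filters. The levels are printed in 2 identical pairs of columns, used once.

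The members, gene lists and tests were chosen with earlier results of these data known. The text names the 5 members, every listed gene of the lists described, and for each member the listed gene nearest in level, by Euclidean distance over both log2 levels. Ratios of levels were taken with no pseudocount. The number of genes tested was worked out from p over adjusted p, which gave a whole rank (within 0.001) for 178 of 178 genes with a p above 0. No test was run across samples, since each group has 1 library, and a p-value of the authors concerns the pair of libraries and not the treatments.

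Library totals are unknown. Reads per gene were estimated by a procedure found by hand after the data were seen. For the 41 genes listed at 0 in 1 library, the authors' folds are whole multiples of a common step. With that step taken as 0.01 read, an assumption, the fold is the ratio of reads times 1.18, with 0 replaced by 0.5. For the other genes with a p above 0, the fold gives the ratio of reads, a simple fraction for 131 of 137. The size of both counts was set so that a normal score test of 2 proportions gives the authors' p. This test was kept after other tests (exact binomial, negative binomial) had not matched. The tolerance of 5% and the minimum of 19 reads were also set after the data were seen. Among genes with 19 reads or more in both libraries and under 600 with vehicle, the size was within 5% of such a count for 30 of 32 higher genes, but for 2 of 11 lower genes. The size was rounded to the nearest whole multiple of the fraction. Where a multiple giving whole reads in both libraries lay within 5%, it was taken instead. Whole read estimates thus follow in part from this choice. Where the nearest multiple is large, rounding alone brings the size within 5%, so the check could not fail. This holds for Mx1, Mx2, Gbp9 and Ifi47, and not for Tgtp2. The members were within 2.2%, and genes with more reads were given no estimate. On simulated data made with the same score test, 699 of 700 estimates were recovered, which tests the arithmetic and not the choice of test. The counting intervals (Poisson; Clopper-Pearson for folds; normal on the log scale for ratios of folds, 95%) rest on these estimates and cover counting error alone.

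Positions, transcripts and coding sequences are from GENCODE M21 (GRCm38), and promoters and synonyms from RefSeq (GRCm38.p6). Python 3.11.15, pandas 2.3.3, numpy 2.4.6, scipy 1.17.1, Biopython 1.88 and matplotlib 3.10.9 were used. Alternatives were pseudocounts, the authors' log2 fold, means for medians, leaving out each member, and stricter lists.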

Additional observations from a re-analysis of the deposited data

How the results depend on the processing

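No paired analysis was possible because each group has 1 library, and for the same reason no replicate could be left out. The alternatives for the ratio (pseudocounts of 0.1, 1 and 5 and the authors' log2 fold) cannot turn the direction of a member, since a constant added to both levels keeps their order and the members were taken from genes listed as higher. The difference of the families in log2 level ratio, GBP and IRG minus Mx, was -0.59. It reversed to 0.16 with a pseudocount of 5, and was -0.093 without Mx1, -1.08 without Mx2 and -0.14 without Gbp9. It was -0.52 and -0.18 with pseudocounts of 0.1 and 1, -0.48 by the authors' log2 fold and -0.32 by means. Without Tgtp2 the difference was -0.63, and without Ifi47 -0.18. With summed read estimates, an alternative added after the data were seen, the difference was -0.13. The ratio of the family vehicle levels, 0.942 by medians, was 1.48 by means, 0.529 without Mx1, 4.30 without Mx2, 1.75 without Gbp9, 1.95 without Tgtp2, 0.735 without Ifi47, and 0.558 with Gm12250 and Gm4841, also added later. These shifts follow from families of 2 and 3 genes. Of the 7 listed family members, 3 remained at a log2 fold of 1.5 or more, 5 at a level of 1 or more in both libraries, and 7 at an adjusted p of 0.01 or 0.001. The level of Mx1, at 25 estimated vehicle reads, is the least precise of the 5.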

Other observations

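Of the listed genes, 1 lies within 500 kb of Tgtp2 and Ifi47 besides these genes themselves. Gm12184, which GENCODE M21 types as protein coding, lies 230539 bases from Tgtp2 and was lower with Musclin. Its levels were 2.09 with vehicle and 0.32 with Musclin, and its fold in the authors' deposited table was 0.156. It was noticed after its values were seen. No listed gene lay within that distance of Gbp9, Gm12250 or Gm4841, and none but the other Mx gene lay that near to Mx1 and Mx2.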
